A study of Mus musculus with 6 samples.

Results

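Malat1, Neat1, Gas5, Snhg1 and Snhg12 are long noncoding RNAs (lncRNAs), either retained in the nucleus or transcribed as carriers of small nucleolar RNAs (snoRNAs). They were taken by exact gene symbol from a list of 7 names. Snhg8 and Kcnq1ot1 matched no symbol in the count lists and are not analysed here, which left 5 of 38926 genes. Their RNA was measured by sequencing in sorted hematopoietic stem cells (HSCs) of the mouse fetal liver at E14.5 of gestation. The 3 control samples had the genotype Vav-Cre; Dpy30F/+, and the 3 knockout samples had Vav-Cre; Dpy30F/-, so every sample carried Vav-Cre, a Cre transgene active in blood-forming cells, and a floxed Dpy30 allele. Controls were thus heterozygous where Cre had acted, and knockouts had no intact allele there. Each of 3 litters gave 1 sample of each genotype, numbered here by litter, and the labels do not say whether a sample was 1 embryo or a pool. Dpy30 encodes a core subunit of the complexes that methylate lysine 4 of histone H3, and the comparison asks which transcripts differ when it is lost.

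Malat1 and Neat1 act in the nucleus. Malat1 collects at nuclear speckles, bodies rich in splicing factors, and Neat1 is the scaffold on which paraspeckle bodies assemble. Gas5, Snhg1 and Snhg12 are host genes: their introns carry snoRNAs, which guide chemical modification of ribosomal RNA, while the spliced transcript is exported, engaged by ribosomes and turned over by nonsense-mediated decay. Such hosts often begin with a tract of pyrimidines (the 5′ terminal oligopyrimidine, or TOP, element) also found on mRNAs for ribosomal proteins. Gas5 takes its name from its accumulation in growth-arrested cells.

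By GENCODE M21 (GRCm38, the assembly that the mm10 of the submitters' processing notes names), Malat1 lies on chromosome 19 from 5795690 to 5802672 on the minus strand. Neat1 lies on the same strand from 5824708 to 5845478, with 22035 bases between them. Snhg1 is also on chromosome 19, from 8723475 to 8726443 on the plus strand. Gas5 is on chromosome 1 from 161034422 to 161038539, and Snhg12 is on chromosome 4 from 132308623 to 132311024, both on the plus strand. The annotation places 9 snoRNA loci inside Gas5, 8 inside Snhg1 and 4 inside Snhg12, and none inside Malat1 or Neat1. The count lists hold 7, 8 and 4 of those snoRNA symbols for the 3 hosts, and every one had 0 counts in every sample. Libraries were made from poly(A) RNA, so the values below describe the host transcripts and say nothing of the snoRNAs cut from them.

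The 3 hosts are shown from 50 bases before to 50 bases after (start included) their RefSeq transcription start, because they are the snoRNA hosts of the set and hosts of this kind often begin with a pyrimidine tract. The motifs were chosen after the sequences were seen and were searched on the transcribed strand. Capitals mark a TATA beginning 40 to 20 bases before the start, and the longest run of at least 5 bases that are C or T, beginning with C, between 10 bases before and 20 bases after the start. The sequences are RefSeq's for GRCm38.p6. Gas5 has a further RefSeq start upstream, whose window held neither motif.
Gas5, chr1:161035116-161035215, plus strand: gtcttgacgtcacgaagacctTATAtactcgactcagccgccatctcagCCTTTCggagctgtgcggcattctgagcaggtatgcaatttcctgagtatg
Snhg1, chr19:8723437-8723536, plus strand: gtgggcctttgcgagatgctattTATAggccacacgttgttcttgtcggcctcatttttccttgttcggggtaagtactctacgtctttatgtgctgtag
Snhg12, chr4:132308628-132308727, plus strand: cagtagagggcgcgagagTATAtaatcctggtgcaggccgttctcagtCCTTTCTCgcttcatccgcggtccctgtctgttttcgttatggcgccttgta
TATA began 29, 27 and 32 bases before the start in Gas5, Snhg1 and Snhg12, and 5.81% of 32851 RefSeq promoter windows held it at this place. A pyrimidine run met the rule in Gas5 and Snhg12, as in 35.8% of all windows, and 2.23% of all windows held both. Snhg1 also has a run of C and T just after its start (tttttcctt), which begins with T and so did not meet the rule. The share of all windows with a run of that kind was not computed. The Malat1 window held neither. A match describes the letters only.

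The libraries held 31897737 to 43394700 counts assigned to genes. Mitochondrially encoded genes took 54.4% to 67.7% of them in controls and 49.2% to 55.7% in knockouts. Dpy30 itself gave 712, 904 and 1395 counts in the control of litters 1 to 3 and 315, 216 and 478 in the knockout, every knockout below every control after scaling. The 11 stem and progenitor cell markers were all detected in each sample except control 3, where 1 of them had 0 counts. Their summed level was 642 to 681 CPM (counts per 1000000, scaled between libraries) in controls and 280 to 961 CPM in knockouts, with knockout 3 lowest. The 11 macrophage markers summed to 332 to 540 CPM in controls and 343 to 1706 CPM in knockouts, with knockout 3 highest. Granulocyte markers summed to 58.8 to 119 and 68.8 to 379 CPM, erythroid to 714 to 1746 and 767 to 2448, megakaryocyte to 47.4 to 87.95 and 50.7 to 71.8, hepatocyte to 5.56 to 21.9 and 3.39 to 7.88, and lymphoid to 1.62 to 5.54 and 1.69 to 4.71, with Cd3e and Cd3g at 0 in all samples. In bulk RNA, fewer cells of a type and less RNA per cell cannot be told apart. Genes also dropped out unevenly between libraries. Of genes with a mean of at least 100 counts in the other 5 samples, 4.45% had at most 10 counts in knockout 2 and 6.44% in knockout 3, against 0.841% to 2.13% in the other 4 samples.

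The group means of the 3 snoRNA hosts and of Neat1 were lower in knockouts than in controls, and the Malat1 mean was higher. Mean levels in the knockouts were 44.4% of control for Gas5, 48.5% for Snhg1, 47.9% for Snhg12, 53.4% for Neat1 and 118% for Malat1. The Snhg12 and Neat1 values include a knockout 2 far below every other sample. No member passed edgeR's quasi-likelihood test at an adjusted p of 0.05, and 0 of all 13646 tested genes did (0%). At an unadjusted p under 0.05 there were 2 members, Gas5 and Snhg1, and 888 genes in all (6.51%; 2.24% of all genes were at that level and lower in the knockout). DESeq2, another count test, called 138 genes (1.03% of those given an adjusted p), 34 of them lower in the knockout (0.254%), and Gas5 was the 1 member among them. Every knockout lay below every control for Gas5 and Snhg1, as it did for 7.74% of all tested genes. No member had every knockout above every control, which 6.39% of all tested genes had. With 3 samples against 3, an exact permutation test of a single value cannot go below p = 0.1.

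**Figure D1:**
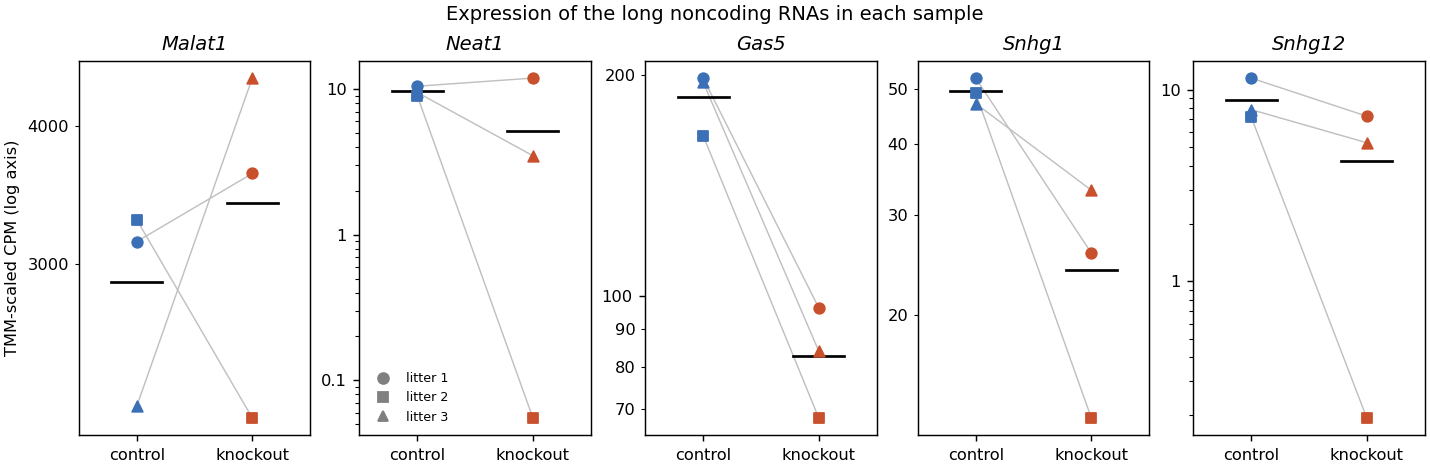
Expression of each lncRNA in every sample, in TMM-scaled CPM on a log axis that differs between panels; symbols give the litter, grey lines join samples of the same litter, and black bars are group means. The Gas5 and Snhg1 knockouts lie below all controls, knockout 2 is far below the other samples for Neat1 and Snhg12, and the Malat1 groups overlap.

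Gas5 had 198, 165 and 196 CPM in controls 1 to 3 and 96.3, 68.1 and 84.0 CPM in knockouts 1 to 3. The groups did not overlap, and the highest knockout was well under the lowest control. Group means were 186 ± 18.3 CPM for controls and 82.8 ± 14.1 CPM for knockouts (SD, n = 3 per genotype; exact permutation test, two-sided, p = 0.1, the smallest possible). The log2 fold change (knockout over control) came to -1.17 (SE 0.22; edgeR adjusted p = 0.571, unadjusted p = 0.000765, DESeq2 adjusted p = 0.00480). By unadjusted p, Gas5 stood at rank 16 of the 13646 tested genes. Within litters 1 to 3 the difference was -1.04, -1.28 and -1.22 on the log2 scale, the narrowest spread of the 5 lncRNAs. It was -1.17 without knockout 3, the library richest in macrophage markers, and -1.16 without the mitochondrial genes. DESeq2 with litter as a block also called it (adjusted p = 0.0113), while edgeR with the block did not (-1.18, adjusted p = 0.953).

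The start of the annotated Gas5 gene overlaps Zbtb37, a protein-coding gene on the opposite strand, over 428 bases. The strand setting of the counting is not given in the sources used here, so reads there cannot be assigned with certainty. Zbtb37 had 9.26, 9.01 and 15.8 CPM in controls and 13.1, 3.94 and 31.9 CPM in knockouts, a pattern in which the groups overlapped (log2 fold change 0.52, SE 0.74; edgeR adjusted p = 0.937). Zbtb37 was below Gas5 in every sample.

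Snhg1, the host of a series of box C/D snoRNAs, had 52.2, 49.2 and 47.1 CPM in controls 1 to 3 and 25.7, 13.2 and 33.2 CPM in knockouts 1 to 3. The controls were close together and all above the knockouts, which spread more widely. Group means were 49.5 ± 2.57 CPM for controls and 24.04 ± 10.1 CPM for knockouts (SD, n = 3 per genotype; exact permutation test, p = 0.1). The fitted log2 difference was -1.04 (SE 0.38; edgeR adjusted p = 0.729, DESeq2 adjusted p = 0.345). Within litters it was -1.02, -1.89 and -0.505. The value was -0.75 without knockout 2, the lowest sample.

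Snhg12, which carries mostly H/ACA snoRNAs, was a low-level transcript with 333, 270 and 347 counts in the controls of litters 1 to 3 against 289, 7 and 185 in the knockouts. Scaled, this was 11.5, 7.22 and 7.87 CPM in controls and 7.27, 0.193 and 5.28 CPM in knockouts. Knockout 1 lay between controls 2 and 3, and knockout 2 was far below all other samples. Group means were 8.86 ± 2.31 CPM for controls and 4.25 ± 3.65 CPM for knockouts (SD, n = 3 per genotype; exact permutation test, p = 0.2). The fitted log2 difference was -1.06 (SE 1.10; edgeR adjusted p = 0.907), -0.50 without knockout 2, -1.70 without knockout 1, and -1.84 with litter as a block (edgeR adjusted p = 0.953).

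Neat1 had 303, 336 and 418 counts in the controls of litters 1 to 3 against 473, 2 and 122 in the knockouts. In CPM the controls were tightly placed at 10.5, 8.99 and 9.48, whereas the knockouts were at 11.9, 0.0551 and 3.48. Knockout 1 was above every control and the other 2 were below every control, so the groups overlapped. The 2 counts of knockout 2 allow 0.00668 to 0.199 CPM (95% exact Poisson interval, counting error only), still below every other sample. Group means were 9.64 ± 0.752 CPM for controls and 5.15 ± 6.10 CPM for knockouts (SD, n = 3 per genotype; exact permutation test, p = 0.4), with a knockout SD larger than the mean. The log2 fold change of -0.90 (SE 1.29; edgeR adjusted p = 0.938) was -0.33 without knockout 2, -2.45 without knockout 1 and -2.16 with litter as a block (edgeR adjusted p = 0.953). Knockouts 2 and 3 were also the libraries with most dropouts, and the part of dropout in these Neat1 and Snhg12 values was not tested.

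Malat1, the most abundant of the 5, had 3144, 3291 and 2231 CPM in controls 1 to 3 and 3623, 2178 and 4419 CPM in knockouts 1 to 3. Knockouts 1 and 3 were above all controls and knockout 2 was just below the lowest, so the groups overlapped. Group means were 2889 ± 574 CPM for controls and 3407 ± 1136 CPM for knockouts (SD, n = 3 per genotype; exact permutation test, p = 0.5). The fitted log2 difference was 0.24 (SE 0.28; edgeR adjusted p = 0.926), and within litters it was 0.204, -0.595 and 0.986. It was 0.02 without knockout 3 and 0.08 without control 3. Malat1 ranked 9 to 12 among all genes by counts in every library and took 0.487% to 0.893% of the counts of nuclear genes. Mature Malat1 ends in a triple helix rather than a poly(A) tail, so its recovery in a poly(A) library rests on A-rich stretches within it, and CPM here need not follow its cellular level.

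**Figure D2:**
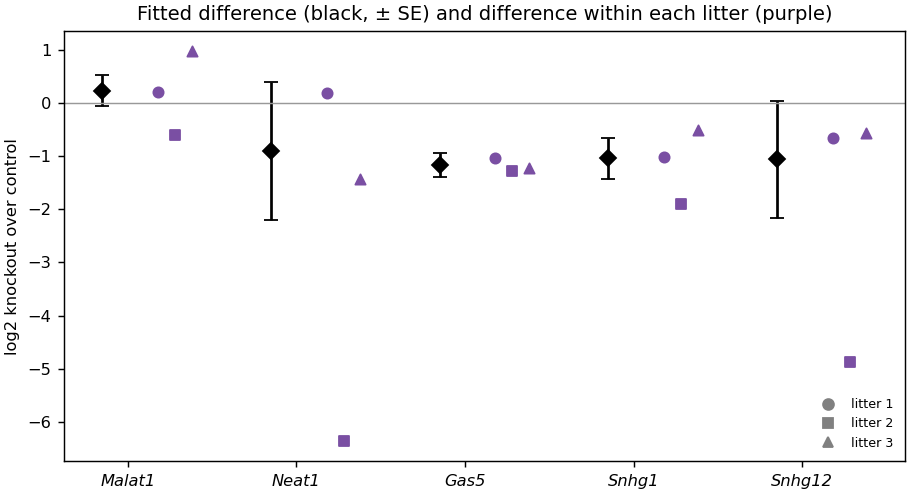
Log2 knockout over control for the 5 lncRNAs: black diamonds with bars are edgeR log2 fold changes ± SE, and purple symbols are the differences of log2 CPM within each litter. Gas5 lies between -1.04 and -1.28 in all 3 litters, whereas Neat1 runs from 0.185 in litter 1 to -6.37 in litter 2.

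Levels between genes were compared per kilobase of exon, over all annotated exons merged. In controls Malat1 was at 414 ± 82.2, Gas5 at 49.6 ± 4.86, Snhg1 at 16.7 ± 0.870, Snhg12 at 3.69 ± 0.960 and Neat1 at 0.464 ± 0.0362 CPM per kilobase (SD, n = 3). These control ranges did not overlap between neighbours in the order. In knockouts the levels were 488 ± 163, 22.01 ± 3.76, 8.10 ± 3.40, 1.77 ± 1.52 and 0.248 ± 0.293 CPM per kilobase (SD, n = 3), in the same order by mean, with the Snhg12 and Neat1 ranges overlapping. Merged exons of Neat1 span 20771 bases because they include its long isoform. Counts by gene symbol do not separate the isoforms, and how well a poly(A) library recovers each was not tested. Divided by the 3004 bases of an annotated short isoform, Neat1 would be at 2.99 to 3.48 CPM per kilobase in controls, a range that overlaps that of Snhg12. The hosts have many annotated transcripts that retain introns, so their merged length exceeds that of the spliced RNA and their per-kilobase level is understated.

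The replicate spread pooled over both genotypes was smaller for Gas5, Malat1 and Snhg1 than for Snhg12 and Neat1, which knockout 2 set apart. The biological coefficient of variation (BCV, the replicate spread beyond counting error) was 0.255 for Gas5, 0.296 for Malat1, 0.381 for Snhg1, 0.923 for Snhg12 and 1.05 for Neat1, where the value common to all genes was 0.817. The knockouts varied more than the controls for each of the 5. How many of all tested genes did so was not computed, so this count has no background to be read against. Whether the wider knockout spread is particular to these lncRNAs was not tested. Coefficients of variation of CPM in controls and knockouts were 19.9% and 33.3% for Malat1, 9.81% and 17.1% for Gas5, 5.20% and 42.0% for Snhg1, 26.0% and 85.9% for Snhg12, and 7.80% and 118% for Neat1. Among controls alone, Neat1 thus varied less than Gas5 or Malat1.

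**Figure D3:**
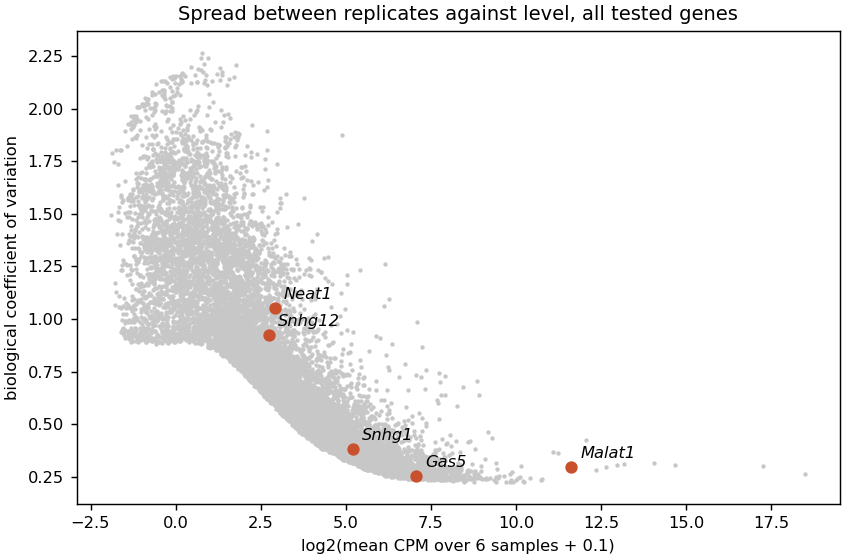
Biological coefficient of variation of each of the 13646 tested genes (grey) against its level, as log2 of the mean CPM over 6 samples plus 0.1, with the 5 lncRNAs in orange. Gas5 at 0.255 sits at the lower edge of the cloud and Neat1 at 1.05 among low-level genes with a wide spread.

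Counts relative to Malat1 within a library need no scaling between libraries. This comparison was chosen after the values were seen. Gas5 had 6.30, 5.03 and 8.77 counts per 100 Malat1 counts in the controls of litters 1 to 3 against 2.66, 3.12 and 1.90 in the knockouts. Snhg1 had 1.66, 1.495 and 2.11 in controls against 0.710, 0.606 and 0.751 in knockouts, and Snhg12 had 0.366, 0.220 and 0.353 against 0.201, 0.00886 and 0.120. The groups did not overlap for any of the 3 hosts (exact permutation p = 0.1 for each, the smallest possible). The share of all genes without overlap in this ratio was not computed, so the count has no background to be read against. In CPM the Snhg12 groups did overlap, with knockout 1 at 7.27 and control 2 at 7.22. Malat1, the divisor, was at 3623 CPM in knockout 1 and 2231 CPM in control 3. Between hosts the ratio overlapped: Gas5 per 100 Snhg1 counts averaged 377 ± 39.6 over controls and 381 ± 131 over knockouts (SD, n = 3 per genotype; exact permutation test, p = 1.0). Neat1 per 100 Malat1 counts was 0.333, 0.273 and 0.425 in controls and 0.329, 0.00253 and 0.0789 in knockouts, with knockout 1 inside the control range. A ratio shows unequal levels and does not say which RNA differs.

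**Figure D4:**
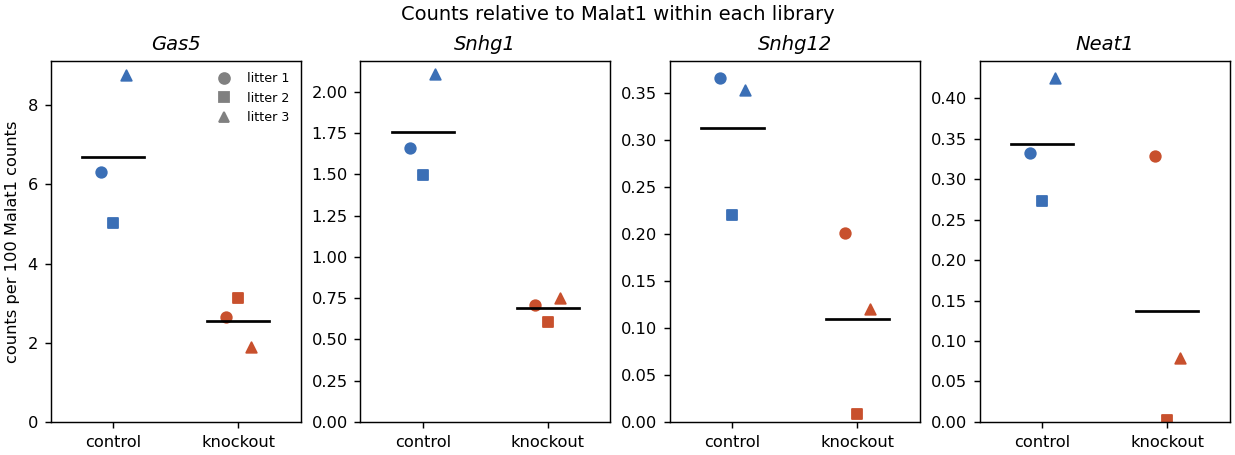
Counts of each transcript per 100 Malat1 counts in the same library, on linear axes from 0 that differ between panels; symbols give the litter and black bars are group means. The knockouts lie below all controls for Gas5, Snhg1 and Snhg12, and overlap the controls for Neat1.

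Likeness of pattern was measured as the root mean square difference of log2 CPM over the 6 samples after each gene was centred on its own mean. Among the 5, Gas5 and Snhg1 were the closest pair at 0.309, and Neat1 and Snhg12 were next at 0.627, both with a deep low in knockout 2. Malat1 and Neat1, neighbours on chromosome 19, were the least alike at 2.25. Of 6759 named genes with a mean of at least 10 CPM, those most like Gas5 were Fam210a at 0.124 and Atp1b2 at 0.190. Those most like Malat1 were Npc1 at 0.0773 and Lamp2 at 0.0831, which encode a cholesterol transporter and a membrane protein of lysosomes. Casc4 (0.190) and Rbm3 (0.217) were nearest to Snhg1, Mgat1 (0.371) and Slco2a1 (0.418) to Snhg12, and Arhgef15 (0.309) and Clcn6 (0.384) to Neat1. The median over all candidates was 0.611 for Malat1, 0.805 for Gas5, 0.863 for Snhg1, 1.95 for Snhg12 and 2.46 for Neat1. The candidates are many and share the same 6 libraries, so these values are a description.

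The protein-coding neighbours of Malat1 and Neat1 reported here had positive log2 fold changes. These neighbours are the same genes for both lncRNAs, and 49.2% of all tested genes had a negative value. Frmd8, 4224 bases beyond Neat1, had 7.74, 6.98 and 8.87 CPM in controls and 15.3, 14.1 and 40.8 CPM in knockouts, with no overlap between groups (log2 fold change 1.57, SE 0.55; edgeR adjusted p = 0.729). Slc25a45 was at 1.42 (SE 0.72; edgeR adjusted p = 0.795) and Ltbp3 at 4.13 (SE 1.94; adjusted p = 0.775). None of these passed the test, and none shared the sign of Neat1. Every knockout lay above every control, as for Frmd8, in 6.39% of all tested genes. Slc3a2, an amino acid transporter subunit whose gene lies 106 bases from Snhg1 on the opposite strand, was at 0.77 (SE 0.39; edgeR adjusted p = 0.795), opposite in sign to Snhg1. Wdr74, a ribosome assembly factor 9384 bases beyond Snhg1, had 58.8, 33.5 and 28.0 CPM in controls and 19.6, 14.52 and 15.8 CPM in knockouts, again without overlap (log2 fold change -1.27, SE 0.40; edgeR adjusted p = 0.686). Every knockout lay below every control, as for Wdr74, in 7.74% of all tested genes. Cenpl, on the 3′ side of Gas5, was at -1.10 (SE 0.88). Serpinc1 and Rc3h1 on its other side were at 3.31 (SE 2.08) and -0.08 (SE 0.24). Around Snhg12, Taf12 was at -0.84 (SE 0.41), Trnau1ap at 0.57 (SE 0.82) and Rcc1 at -0.31 (SE 0.46).

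Other snoRNA host lncRNAs had mostly lower values in the knockouts. Of 16 in the files, 7 of them under older symbols, 11 had enough counts to be tested, and 0 passed in edgeR or in DESeq2 without a block. DESeq2 with litter as a block called 1, Snhg4, as lower, where it called 0.957% of all genes with an adjusted p as lower. At an unadjusted p under 0.05 in edgeR, 3 were lower, beside 2.24% of all tested genes, and 1 was higher, beside 4.26%. The log2 fold change was negative for 8 of the 11, where it was negative for 49.2% of all tested genes, and the list's median was -1.29 beside 0.01 for all genes. For 5 of the 11 every knockout lay below every control (7.74% of all tested genes), and for 1 every knockout lay above (6.39% of all tested genes). The list's median stayed below 0 and below that of all genes in each of the 15 alternatives, from -1.42 to -0.97. These alternatives reuse the same 6 libraries. With at least 10 counts in every sample only 4 of the genes were left, all 4 negative, with a median of -1.29. In knockout 3 Snhg7 had 0 counts and Snhg15 and Snhg17 had 4 each, while Snhg5 and Zfas1 had 846 and 465. The part of dropout in the list's median was not tested.

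Snhg5 had 66.5, 33.1 and 36.4 CPM in controls 1 to 3 and 14.7, 16.8 and 24.2 CPM in knockouts 1 to 3, without overlap (log2 fold change -1.29, SE 0.40; edgeR adjusted p = 0.686). Zfas1, which hosts box C/D snoRNAs, had 15.9, 27.3 and 38.1 CPM against 15.02, 9.04 and 13.3 CPM (log2 fold change -1.12, SE 0.46; edgeR adjusted p = 0.758). Dancr was low throughout, with 137, 77 and 99 counts in controls and 26, 8 and 16 in knockouts (log2 fold change -2.75, SE 1.127; edgeR adjusted p = 0.758). All knockouts were below all controls for these 3 genes. Snhg20 went the other way, with 1, 9 and 24 counts in controls and 145, 52 and 83 in knockouts (log2 fold change 3.16, SE 1.35; edgeR adjusted p = 0.762). Snhg20, Snhg4, Snhg7, Snhg15 and Snhg17 are named after their values were seen. Snhg4 and Snhg17 split the knockouts as Neat1 did: Snhg4 was at 22.4 CPM in knockout 1 and at 1.46 and 0.457 CPM in knockouts 2 and 3, against 17.01 to 25.2 CPM in controls. The fitted log2 difference of Snhg4 came to -1.37 (SE 1.20; edgeR adjusted p = 0.889), or -3.28 in DESeq2 with litter as a block (adjusted p = 0.0155).

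**Figure D5:**
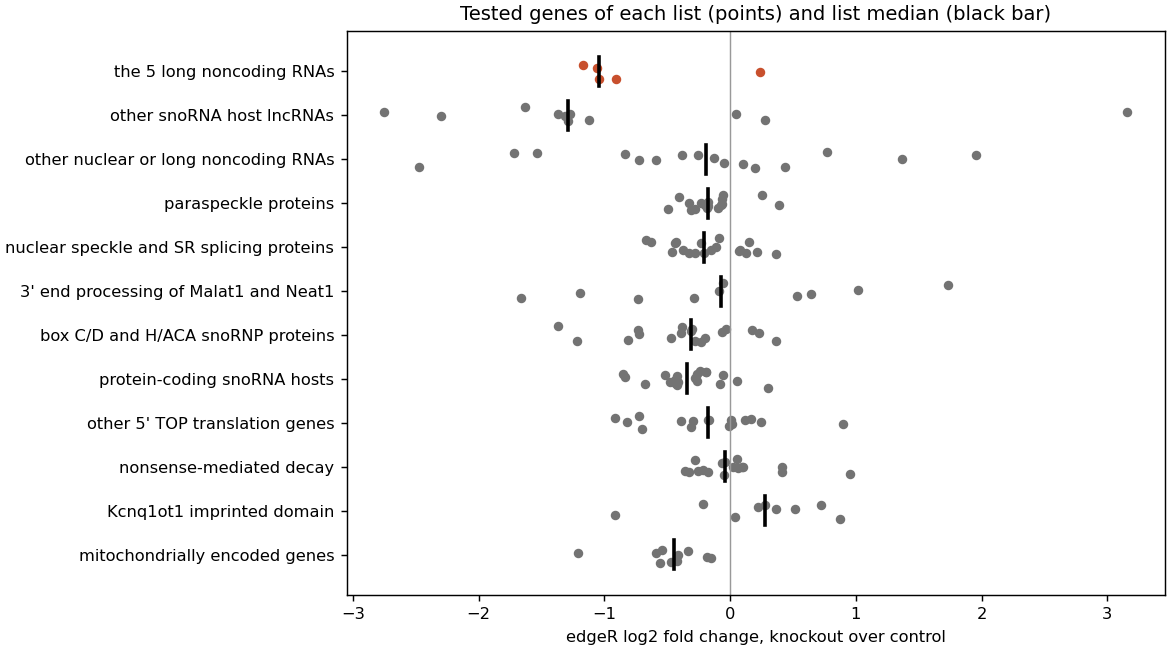
Log2 fold changes (edgeR, knockout over control) of the tested genes in each list, 1 point per gene, with list medians as black bars and the 5 lncRNAs in orange. The other snoRNA host lncRNAs have a median of -1.29, while the lists from paraspeckle proteins down to nonsense-mediated decay have medians between -0.35 and -0.04 in this fit.

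Lists of proteins that work with these RNAs had medians nearer 0. The box C/D and H/ACA proteins, which assemble with snoRNAs, had a median of -0.31 (log2 fold change) over 18 tested genes, 15 of them negative. Of all tested genes 49.2% were negative in the main fit, the background for such counts in this and the following lists. This median was -0.06 with 12 negative under scaling by library size only, and -0.64 without knockout 2. At an unadjusted edgeR p under 0.05 there was 1 of the 18, Nolc1, a chaperone of snoRNA particles. Of all tested genes 6.51% were at that level, and 2.24% of all tested genes were at that level and lower. Nolc1 had 160, 134 and 168 CPM in controls and 73.2, 95.1 and 111 CPM in knockouts (log2 fold change -0.73, SE 0.24, edgeR adjusted p = 0.709). Dkc1, the pseudouridine synthase of H/ACA particles, was at -0.81 (SE 0.36; edgeR adjusted p = 0.775), and Nop58, a box C/D core protein, was at -0.47 (SE 0.22; adjusted p = 0.775). For 5 of the 18 every knockout was below every control, which held for 7.74% of all tested genes. Protein-coding hosts of snoRNAs, most of them ribosomal protein genes, had a median of -0.35 over 20 genes, with 18 negative, which became -0.20 without control 1 and -0.12 with scaling by library size only. Of these Eif4a2, a translation initiation helicase, was at -0.83 (SE 0.26; edgeR adjusted p = 0.705), Ncl, the nucleolar protein nucleolin, at -0.44 (SE 0.18; adjusted p = 0.759) and Rps3, a ribosomal protein gene, at -0.44 (SE 0.23; adjusted p = 0.797). Genes with processed pseudogenes have uncertain counts, since reads with more than 1 alignment were not given to genes.

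Other TOP mRNAs of translation had a median of -0.17 over 16 genes, 10 negative, which turned to 0.01 with scaling by library size only and was -0.11 without control 3 or without knockout 1. Eef1g was at -0.82 (SE 0.27), Hnrnpa1 at -0.91 (SE 0.33) and Npm1 at -0.70 (SE 0.27), with edgeR adjusted p of 0.709, 0.729 and 0.7499. The nonsense-mediated decay list, whose factors degrade spliced host transcripts, had a median of -0.04 over 17 genes and 9 negative values, and its sign turned in 3 of the 15 alternatives. Its member with the smallest p was Smg5 at 0.96 (SE 0.37; edgeR adjusted p = 0.7499), followed by Upf2 at 0.41 (SE 0.26) and the exonuclease Xrn1 at 0.41 (SE 0.29). No gene of these 4 lists passed the test in edgeR or DESeq2.

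Paraspeckle proteins, which bind Neat1, had a median of -0.18 over 17 genes, 15 negative and none at an unadjusted p under 0.05 in edgeR or called by DESeq2. This median turned to 0.05, with 6 of the 17 negative, under scaling by library size only. It was -0.10 without knockout 3. Cpsf7 was at -0.50 (SE 0.29) and Hnrnph3 at 0.39 (SE 0.32). The core paraspeckle genes Nono and Sfpq, also named after their values were seen, overlapped between genotypes, with Nono at 158 to 197 CPM in controls and 146 to 197 CPM in knockouts. Knockout 2, in which Neat1 had 2 counts, held 197 CPM of Nono and 303 CPM of Sfpq, so these abundant partner mRNAs were not low in that library. Nuclear speckle and SR splicing proteins had a median of -0.21 over 19 genes, 13 negative, which ran from -0.48 without knockout 2 to -0.01 with scaling by library size only. Among them were Srsf5 at -0.67 (SE 0.24; edgeR adjusted p = 0.729), Srsf3 at -0.47 (SE 0.26) and Srsf2 at -0.43 (SE 0.28). Genes for RNase P, which cuts the Malat1 3′ end, and for the tRNA 3′ processing enzyme Elac2 had a median of -0.07 over 10 genes. The sign of this median turned in 6 of the 15 alternatives. Among them Rpp21 was at 1.73 (SE 0.73; edgeR adjusted p = 0.761), Rpp40 at 1.02 (SE 0.65) and Pop1 at -1.19 (SE 0.52; adjusted p = 0.766).

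Of the other lncRNAs, 16 of 23 in the files were tested, with a median of -0.19 and 10 negative, and the median turned to 0.04 with scaling by library size only. It was -0.02 without control 2, -0.07 without knockout 2, -0.11 without control 3 and -0.64 without knockout 1. DESeq2 called 1 of them, Xist, as lower (adjusted p = 0.0253), where it called 1.03% of all genes with an adjusted p, 0.254% as lower. Xist is the RNA that coats the inactive X chromosome of female cells. Its edgeR log2 fold change was -1.72 (SE 0.46, adjusted p = 0.629). Xist was at 497, 488 and 182 CPM in controls and 64.6, 126 and 163 CPM in knockouts, and the sum of 4 Y-linked genes was at 36.7, 24.3 and 72.1 CPM in controls and 92.0, 60.8 and 43.9 CPM in knockouts. Both were present in every sample, and the part of sex in the lncRNA values was not tested. Oip5os1 (Cyrano), an abundant lncRNA, had 243, 250 and 186 CPM against 160, 150 and 140 CPM, without overlap (log2 fold change -0.59, SE 0.21; edgeR adjusted p = 0.729). Mir17hg, the host of a microRNA cluster, was at 16.1, 11.6 and 5.35 CPM in controls and 4.83, 0.413 and 0.685 CPM in knockouts, without overlap. Every knockout lay below every control for 3 of the 16, and for 7.74% of all tested genes. The fitted log2 difference of Mir17hg came to -2.48 (SE 1.09; edgeR adjusted p = 0.773; DESeq2 adjusted p = 0.323), and DESeq2 with litter as a block called it at -3.12 (adjusted p = 0.0365).

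The imprinted genes around Kcnq1ot1 had a median of 0.28 over 9 tested genes, 7 of them positive and none passing in edgeR or DESeq2. It was 0.44 without control 2, and ran from 0.16 with upper-quartile scaling to 0.45 with library size only. Cdkn1c, a cell cycle inhibitor, was at 14.8 ± 4.70 CPM over controls and 27.2 ± 13.2 CPM over knockouts (SD, n = 3 per genotype; log2 fold change 0.88, SE 0.51; edgeR adjusted p = 0.824). Cd81 was at 0.22 (SE 0.25) and Nap1l4 at -0.21 (SE 0.26). Mitochondrially encoded genes, which make up most counts, had a median of -0.44 over 10 tested genes, all 10 negative in this fit and none passing in edgeR or DESeq2. Without control 1, the library with 67.7% mitochondrial counts, the median was -0.08 with 7 of 10 negative; it was -0.29 without knockout 1, -0.69 without knockout 2 and -0.21 with scaling by library size only. Examples are mt-Nd1 at -0.59 (SE 0.30), mt-Rnr1 at -0.54 (SE 0.29) and mt-Rnr2 at -0.42 (SE 0.23).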

How the data were processed

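RNA of 6 sorted samples, 3 control and 3 Dpy30 knockout, was sequenced from poly(A)-selected libraries. The values deposited by the authors are raw counts (whole numbers) by gene symbol, 1 list per sample, each ending in 5 tallies of unassigned reads, which were left out of library sizes. The submitters' processing notes name mm10, CASAVA 1.8.4, TopHat2, Picard 1.126, HTSeq 0.6.0, DESeq 3.0 and bedtools 2.17.0, without roles. The annotation and the strand setting are not given in the sources used here. Genes were kept by filterByExpr (13646 of 38926, including all 5 members found), scaled by TMM and tested with edgeR 4.0.16 (glmQLFit, glmQLFTest, R 4.3.3) between genotypes, with Benjamini-Hochberg adjustment over all tested genes and a threshold of 0.05. The SE is the size of the fitted difference divided by the root of F; log2 CPM was computed with prior count 2. DESeq2 1.42.0 was an alternative. Single values were compared by two-sided exact permutation tests. Scripts were tested on simulated data, with a required recovery set only at a spread below the common BCV of 0.817. That checks the code and does not measure how many differences edgeR would find in these data. Without molecular tags, intervals cover counting error only.

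Litter numbers in the labels pair the samples. Deviations of same-litter samples from their genotype means correlated at -0.0224, -0.0752 and 0.00336 in litters 1 to 3. The members, lists, motifs and tests were chosen with earlier results of these data known. Genes were named as the members, up to 3 of each list with the smallest p, the 2 most alike and the 2 nearest protein-coding genes on each side; a few genes met by this rule are not reported here. Lists were drawn from general knowledge, with older symbols matched through RefSeq's table for GRCm38.p6, and promoter windows matched 4 of the 5 members. P-values measure the spread between these samples.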

Additional observations from a re-analysis of the deposited data

How the results depend on the processing

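With litter as a replicate block, edgeR called 0 genes, and the log2 fold changes were 0.20 for Malat1, -2.16 for Neat1, -1.18 for Gas5, -1.14 for Snhg1 and -1.84 for Snhg12, so the block changed no edgeR call. The number of genes past the threshold became 138 in DESeq2, 277 in DESeq2 with the block, 1 without a filter on low counts and 1 with at least 10 counts in every sample. The number of members became 1 in DESeq2 and 1 in DESeq2 with the block, Gas5 both times, at -1.15 (adjusted p = 0.00480) and -1.16 (adjusted p = 0.0113). Over all of its 15 alternatives the adjusted p of Gas5 ran from 0.00480 to 0.9999. Listed genes called became 1 in DESeq2 (Xist) and 3 with its block (Mir17hg, Snhg4 and Xist), all lower in the knockout. DESeq2 called 0.254% of all genes with an adjusted p as lower, and 0.957% with the block. Xist and Mir17hg are from the 16 tested other lncRNAs and Snhg4 from the 11 tested other hosts. The share called over all listed genes was not computed, so these calls are not a result about the lists. No member changed sign in any alternative run. Leaving out 1 sample each time gave 0 calls, and ranges of 0.02 to 0.48 for Malat1, -2.45 to -0.33 for Neat1, -1.30 to -1.05 for Gas5, -1.33 to -0.75 for Snhg1 and -1.70 to -0.50 for Snhg12. Without any 1 of the controls, 1 member rather than 2 had an unadjusted p under 0.05 in edgeR. Genes at that level also became fewer: 593 of 14593 tested without control 1, 624 of 14412 without control 2 and 617 of 14470 without control 3. With all samples they were 888 of 13646, and without knockout 1 they were 1796 of 14407. Scaling by library size only moved the median of all genes to 0.23 from 0.01, with Gas5 at -0.94, Snhg1 at -0.82, Snhg12 at -0.73, Neat1 at -0.55 and Malat1 at 0.46. Requiring 10 counts in every sample removed Neat1 and Snhg12, which have no value there. Counting error is widest for Neat1 and Snhg12 in knockout 2, at 2 and 7 counts. That library held 36679347 gene counts, 55.7% of them mitochondrial, and control 2 held 35559444, 54.4% of them mitochondrial. Genes with a count numbered 14674 in knockout 2 and 17241 in control 2. The part of library depth and dropout in these 2 values was not tested.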
